A study of Homo sapiens with 12 samples.

Results

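Immediate early genes are switched on within minutes of a stimulus, without new protein synthesis, and 10 genes of this kind or close to them were followed here: SRF, IER2, IER3, IER5, IER5L, MAFF, MAFK, RHOB, PIM1 and TIPARP. They were chosen by name but with earlier results of these data known, and all 10 were found among the 44147 features of the 12 files. The RNA came from CCRF-CEM, an established T lymphoblast leukemia line, as parent cells with an intact SLFN11 gene and as cells in which that gene had been knocked out. The SLFN11 protein blocks stressed replication, and prexasertib inhibits the checkpoint kinase CHK1. The 4 groups were knockout cells with 100 nM prexasertib for 6 h, knockout cells with DMSO, parent cells with 100 nM prexasertib for 6 h and parent cells with DMSO, with 3 libraries each. The labels do not say how many knockout clones were used. Nor do they name separate cultures for the 3 replicates, so p-values measure only the spread between these libraries, which may be technical. In bulk RNA, fewer cells of a kind and less RNA per cell cannot be told apart.

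The treatment labels conflict with each other. In 12 of 12 records the library named in the title is not the one in the attached file, which carries the name of a library from the same line but the other treatment. Files were taken as they were attached, and groups are therefore called "labelled prexasertib" and "labelled DMSO". Should the titles be right and the attachments wrong, every difference between treatments and every difference between the lines in that difference changes sign, and the comparison of the lines labelled DMSO becomes that of the lines labelled prexasertib. The line of each library is the same either way.

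SRF is the transcription factor behind much of the early response: it binds CArG boxes and works with ELK factors, which ERK kinases phosphorylate, or with actin-controlled MRTF cofactors. The IER genes encode short-lived response proteins. IER3 acts in cell survival, and IER5 binds the phosphatase PP2A and the heat shock factor HSF1. MAFF and MAFK are small MAF proteins, which have no activation domain of their own and pair with CNC factors such as NRF2 and BACH1. RHOB is a small GTPase that acts on the actin cytoskeleton and vesicle traffic, PIM1 a serine/threonine kinase induced through JAK-STAT signalling, and TIPARP a mono-ADP-ribosyltransferase that is induced by, and acts against, the aryl hydrocarbon receptor AHR.

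Promoter windows of 250 bases before the gene start were in the RefSeq table (GRCh38.p14) for 8 of the 10 genes. IER3 and MAFK had no entry. The windows of IER2, MAFF and TIPARP are printed because these genes shared the pattern described below, and that of SRF because it holds matches to the motif its own protein binds. Each reads 5′ to 3′ on the strand of the gene up to the last base before the start, with motif matches in capitals. They lie at chr19:13150161-13150410 for IER2, chr22:38201744-38201993 for MAFF, chr3:156674340-156674589 for TIPARP and chr6:43171019-43171268 for SRF, all on the plus strand.
IER2: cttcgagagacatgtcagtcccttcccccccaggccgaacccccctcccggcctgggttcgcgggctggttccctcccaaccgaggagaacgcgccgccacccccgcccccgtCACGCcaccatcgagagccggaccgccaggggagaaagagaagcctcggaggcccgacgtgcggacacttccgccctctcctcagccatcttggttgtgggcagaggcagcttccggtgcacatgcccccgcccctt
MAFF: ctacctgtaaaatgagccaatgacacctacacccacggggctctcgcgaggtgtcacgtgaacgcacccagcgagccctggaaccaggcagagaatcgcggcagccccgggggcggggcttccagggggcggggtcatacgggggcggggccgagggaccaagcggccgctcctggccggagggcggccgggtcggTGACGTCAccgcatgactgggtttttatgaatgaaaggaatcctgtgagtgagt
TIPARP: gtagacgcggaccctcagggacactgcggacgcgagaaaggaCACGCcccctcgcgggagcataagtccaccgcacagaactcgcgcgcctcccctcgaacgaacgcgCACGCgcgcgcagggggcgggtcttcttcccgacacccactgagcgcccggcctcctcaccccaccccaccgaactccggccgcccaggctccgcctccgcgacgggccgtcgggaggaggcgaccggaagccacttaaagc
SRF: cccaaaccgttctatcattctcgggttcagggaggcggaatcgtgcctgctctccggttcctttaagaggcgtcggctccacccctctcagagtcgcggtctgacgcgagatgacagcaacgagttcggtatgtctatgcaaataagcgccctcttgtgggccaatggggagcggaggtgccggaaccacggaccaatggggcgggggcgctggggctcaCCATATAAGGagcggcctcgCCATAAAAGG
The MAFF window holds a full cyclic AMP response element, TGACGTCA, 54 to 47 bases before the start, a motif found in 1.77% of 27305 promoters of the same length. The SRF window holds 2 CArG boxes, CCATATAAGG from base -30 to -21 and CCATAAAAGG from -10 to -1, and 1.14% of all promoters hold at least 1. The AHR core GCGTG, read on the other strand as CACGC, occurs in the TIPARP window at -208 to -204 and at -142 to -138 and in the IER2 window at -137 to -133, and 31.9% of all promoters hold it. A TATA box written TATAAA (11.1% of promoters), the AP-1 motif TGANTCA (6.60%) and the NF-kappaB site (5.05%) had no match in the 8 windows. All motifs were searched on both strands and no matches overlapped. These matches describe letters in the windows and are not shown to be bound.

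Exonic reads summed to 47887791 to 77548202 per library, and intronic reads made up 23.9 to 30.3% of gene reads. The highest intronic share was that of parent replicate 1 labelled prexasertib, which also differed most from the libraries of its own group. SLFN11 RNA was still read in the knockout cells, at 85.0 to 90.7 CPM labelled prexasertib and 65.9 to 69.1 CPM labelled DMSO, against 117 to 119 and 91.2 to 100.4 CPM in parent cells. Since the edited part of the gene is not given in the sources used here, these counts do not check the knockout. SLFN11 had a log2 fold change against parent cells of -0.41 (SE 0.05, edgeR adjusted p = 5.55e-07) among libraries labelled prexasertib and -0.51 (SE 0.05, adjusted p = 6.02e-09) among those labelled DMSO. It was called higher under the prexasertib label in both lines. All 12 T-cell precursor markers were over 1 CPM, with summed levels of 2095 to 2123 CPM labelled prexasertib and 2083 to 2099.9 CPM labelled DMSO in knockout cells, and of 1712 to 1814 and 1488 to 1570.5 CPM in parent cells. B-cell markers, of which 2 of 6 were over 1 CPM, summed to 40.7 to 43.5 and 41.4 to 43.7 CPM in knockout cells under the prexasertib and DMSO labels, and to 30.1 to 34.9 and 25.3 to 28.1 CPM in parent cells. In parent cells the T-cell precursor and B-cell sums were both higher under the prexasertib label without overlap. Epithelial markers, 2 of 4 over 1 CPM, summed to 10.4 to 11.95 CPM in knockout and 2.24 to 3.63 CPM in parent libraries. No marker of 6 for myeloid, 3 for erythroid and 4 for fibroblast cells was over 1 CPM. The part of these differences in the results was not tested.

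The lines differed most for 5 of the 10 genes. IER2, IER3, MAFF and TIPARP were each higher in all 3 parent libraries labelled DMSO than in all 9 other libraries, and RHOB was lower in all 3 parent libraries labelled prexasertib than in all 9 others. PIM1 and RHOB were each higher in all 3 knockout libraries labelled DMSO than in all 9 others. The share of all tested genes with 1 group apart from all others in this way was not counted. IER5 and IER5L were lower under the prexasertib label in both lines, MAFK was higher in both, and SRF and PIM1 had log2 fold changes between -0.29 and 0.02. Levels are given as CPM, exonic read counts scaled to the TMM-adjusted size of each library. Calls are at an adjusted p of at most 0.05 over the 23045 genes tested with edgeR's quasi-likelihood test, and fold changes are on the log2 scale, prexasertib label over DMSO label.

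In knockout cells 1 of the 10 genes was called higher and 4 lower under the prexasertib label, where 6.11% of all tested genes were called higher and 6.83% lower. In parent cells 1 was called higher and 8 lower, where 18.2% of all tested genes were called higher and 18.2% lower. The median log2 fold change of the 10 genes was -0.20 in knockout and -1.10 in parent cells, beside medians over all tested genes of 0.00 and 0.04. The difference between the lines, knockout response minus parent response, was called positive for 5 of 10 genes and negative for 0 (0 also at an unadjusted p under 0.05, and with DESeq2), where 9.53% of all tested genes were called positive and 7.32% negative. Libraries of the 2 treatment labels did not overlap for 7 of 10 genes in knockout cells and for 8 of 10 in parent cells, beside 34.3% and 43.3% of all tested genes. Without parent replicate 1 labelled prexasertib, 1 gene was called higher and 7 lower in parent cells, and the 5 differences between the lines remained called.

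**Figure D1:**
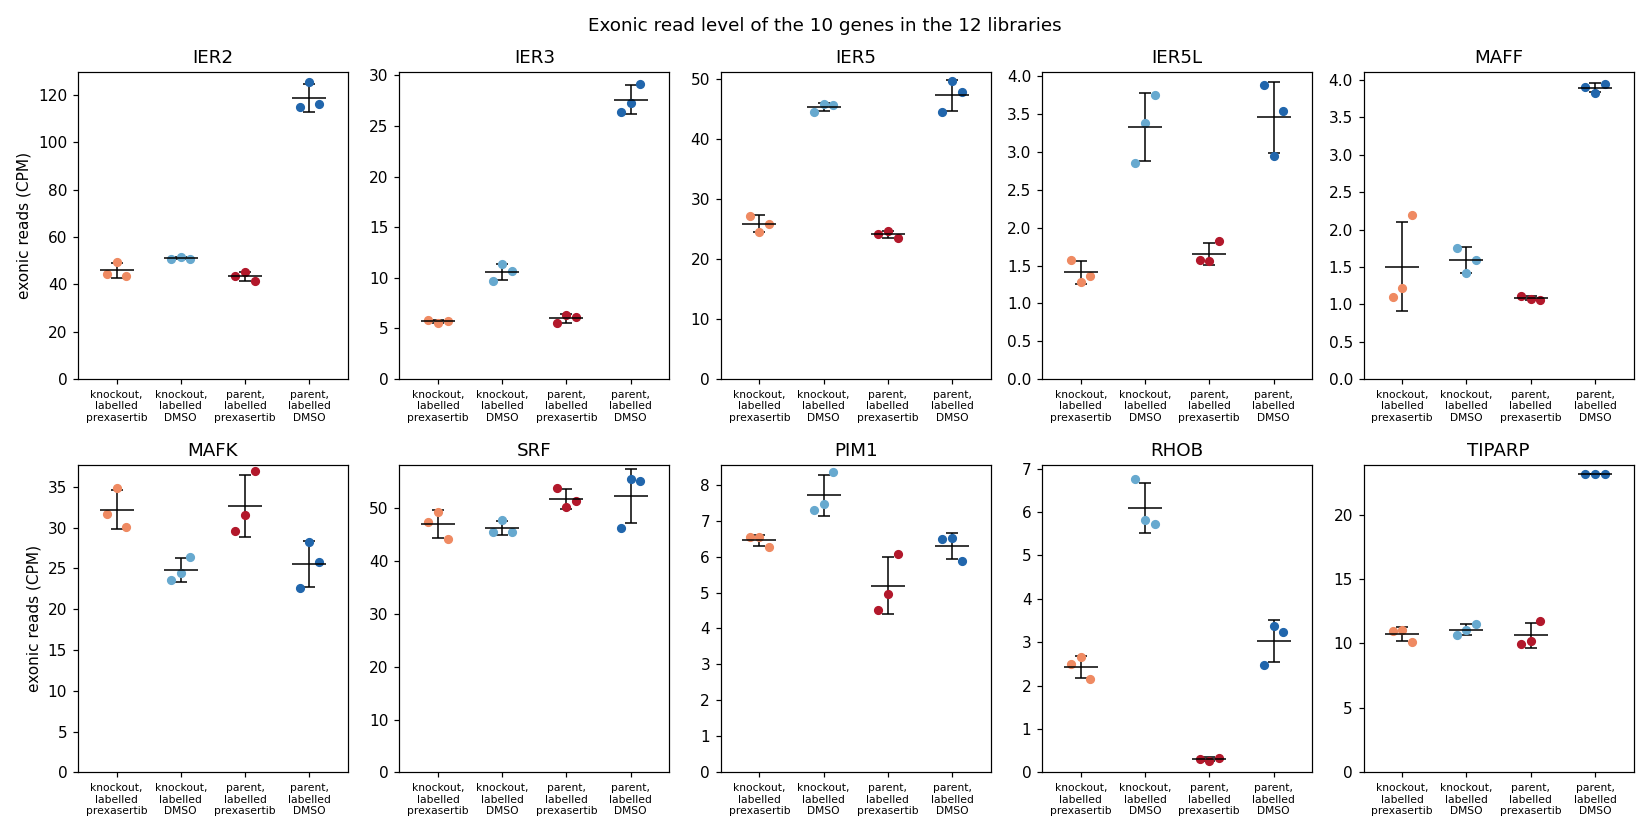
Exonic read level of each gene in CPM, linear axis from 0, for the 12 libraries in 4 groups. Points are libraries, and the long tick and bars are the mean and SD of 3. IER2, IER3, MAFF and TIPARP have their highest points in parent cells labelled DMSO, and RHOB its lowest in parent cells labelled prexasertib.

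**Figure D2:**
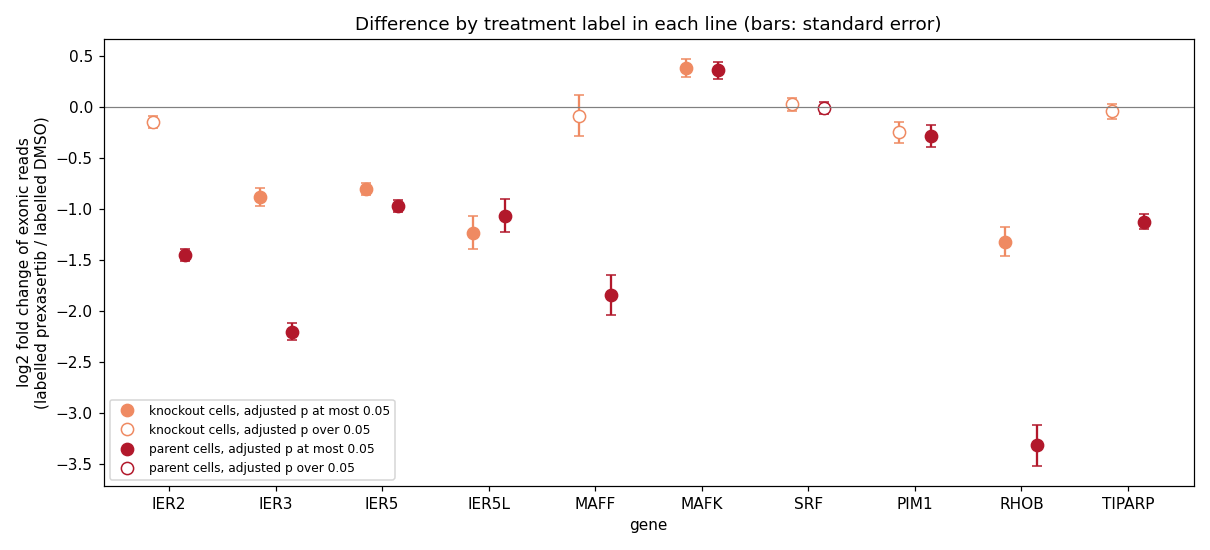
Log2 fold change of exonic reads by treatment label for each gene, knockout cells beside parent cells, with standard errors. Filled points have an adjusted p of at most 0.05. The lines lie far apart for IER2, IER3, MAFF, RHOB and TIPARP, and close for the other genes.

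SRF, at chr6:43139037-43149243 in hg19, did not pass the test by treatment label in either line. It was read at 47.5, 49.4 and 44.3 CPM in knockout libraries labelled prexasertib, against 45.5, 47.9 and 45.5 CPM in those labelled DMSO. Parent libraries had 53.9, 50.2 and 51.4 CPM labelled prexasertib, against 46.4, 55.6 and 55.2 CPM labelled DMSO. The groups overlapped in both lines, with log2 fold changes of 0.02 (SE 0.06, edgeR adjusted p = 0.88) in knockout and -0.01 (SE 0.06, adjusted p = 0.891) in parent cells.

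Among 17 tested SRF cofactors and ERK pathway kinases, 2 were called higher and 1 lower in knockout cells. In parent cells 7 were called higher and 2 lower. Of all tested genes, 6.11% were called higher and 6.83% lower in knockout cells, and 18.2% each way in parent cells. The medians of the list were 0.01 in knockout and 0.09 in parent cells. ELK1, the ERK-regulated partner of SRF, averaged 22.4 and 21.0 CPM in knockout cells under the prexasertib and DMSO labels (log2 fold change 0.09, SE 0.06, edgeR adjusted p = 0.405), and 27.8 and 19.9 CPM in parent cells (0.49, SE 0.06, adjusted p = 8.43e-07). RPS6KA4, the kinase MSK2, did not pass in knockout cells (0.09, SE 0.07, adjusted p = 0.481) and rose in parent cells (0.66, SE 0.07, adjusted p = 4.14e-08). For both, the difference between the lines was itself called, at -0.39 (SE 0.09, adjusted p = 0.0028) for ELK1 and -0.57 (SE 0.10, adjusted p = 0.00018) for RPS6KA4. RPS6KA3, which encodes the kinase RSK2, rose in both lines, by 0.19 in knockout (adjusted p = 0.0197) and 0.36 in parent cells (adjusted p = 7.61e-06).

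Of 18 tested cytoskeletal target genes of SRF, 1 was called higher and 1 lower in knockout cells, near the shares of all tested genes (6.11% and 6.83%). In parent cells 6 were called higher and 3 lower, beside 18.2% of all tested genes each way. The medians were -0.02 in knockout and 0.12 in parent cells. CNN1, a calponin of the actin cytoskeleton, had means of 1.13 CPM labelled prexasertib and 1.70 CPM labelled DMSO in knockout cells, and fell in parent cells to 0.430 CPM labelled prexasertib, against 1.64 CPM labelled DMSO (-1.93, SE 0.25, edgeR adjusted p = 7.19e-07). FHL2, a LIM domain cofactor, rose in knockout cells (0.39, SE 0.12, adjusted p = 0.0351) and fell in parent cells (-0.56, SE 0.11, adjusted p = 0.000221), and that difference was called (0.95, SE 0.17, adjusted p = 0.000171). WDR1, an actin-disassembly factor, rose in parent cells by 0.42 (adjusted p = 2.24e-06), beside 0.11 in knockout cells (adjusted p = 0.265). TAGLN, an actin-binding protein, fell in knockout cells (-0.65, adjusted p = 0.029), beside -0.12 in parent cells (adjusted p = 0.666). Of the myocardin family of SRF cofactors, MYOCD had 0 reads in all libraries. MKL1, which encodes MRTF-A, fell in knockout (-0.19, SE 0.06, adjusted p = 0.0466) and in parent cells (-0.31, SE 0.06, adjusted p = 0.000283). MKL2, which encodes MRTF-B, had -0.04 in knockout (adjusted p = 0.945) and 0.27 in parent cells (adjusted p = 0.336). MKL1, MKL2 and MYOCD are named outside the rule for named genes, after their values were seen. CTGF was not listed in the files.

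IER2, at chr19:13261229-13265722 in hg19, was the most abundant of the 10 genes per length in 3 of the 4 groups. IER2 had 44.4, 49.6 and 43.6 CPM in knockout libraries labelled prexasertib, against 50.7, 51.4 and 50.6 CPM in those labelled DMSO. It had 43.3, 45.0 and 41.5 CPM in parent libraries labelled prexasertib, against 115, 125 and 116 CPM in those labelled DMSO. The knockout groups came close but did not overlap, and the parent libraries labelled DMSO were far above all others. IER2 fell in parent cells (-1.46, SE 0.06, edgeR adjusted p = 9.33e-17). In knockout cells its log2 fold change was -0.15 (SE 0.06, adjusted p = 0.0811), which passed at 0.0498 with a replicate block, at 0.0179 with only the knockout libraries in the fit and at 0.0234 without knockout replicate 2 labelled prexasertib (-0.21). The difference between the lines was 1.30 (SE 0.08, adjusted p = 7.05e-12). Of its exonic reads, 53.0% lay outside another gene, since CTC-250I14.6 overlaps it, and on those reads alone the values were -0.05 (adjusted p = 0.606) in knockout and -1.42 (adjusted p = 2.16e-15) in parent cells. No strand setting was given in the sources used here, so reads of a gene and of one that overlaps it cannot be told apart in the shared part.

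IER3, at chr6:30710976-30712331, fell in both lines and by more in parent cells. IER3 had 5.84, 5.56 and 5.77 CPM in knockout libraries labelled prexasertib, against 9.71, 11.3 and 10.7 CPM in those labelled DMSO. Parent libraries labelled prexasertib had 5.52, 6.28 and 6.15 CPM of IER3, against 26.3, 27.3 and 29.2 CPM labelled DMSO. No groups overlapped within a line, while the libraries labelled prexasertib overlapped between the lines. The log2 fold changes were -0.88 (SE 0.08, edgeR adjusted p = 2.29e-08) in knockout and -2.20 (SE 0.08, adjusted p = 4.5e-17) in parent cells. They differed between the lines by 1.32 (SE 0.12, adjusted p = 8.38e-09). Outside XXbac-BPG252P9.10, which overlaps IER3, lay 75.8% of its exonic reads, and these gave -0.96 in knockout and -2.22 in parent cells.

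IER5, at chr1:181057638-181059977, fell in both lines. IER5 had 27.2, 24.4 and 25.9 CPM in knockout libraries labelled prexasertib, against 44.5, 45.8 and 45.7 CPM in those labelled DMSO. The parent libraries held 24.2, 24.6 and 23.5 CPM labelled prexasertib, against 44.5, 49.6 and 47.7 CPM labelled DMSO. Neither line showed overlap between its groups. The log2 fold changes of IER5 were -0.81 (SE 0.06, edgeR adjusted p = 9.26e-11) in knockout and -0.97 (SE 0.06, adjusted p = 5.33e-13) in parent cells, and their difference of 0.16 (SE 0.08, adjusted p = 0.197) did not pass. No other gene overlaps IER5.

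IER5L, the paralog of IER5 at chr9:131937835-131940540, had far fewer reads. Its levels were 1.57, 1.29 and 1.36 CPM in knockout libraries labelled prexasertib, against 2.85, 3.38 and 3.75 CPM in those labelled DMSO. For parent libraries they were 1.58, 1.56 and 1.82 CPM labelled prexasertib, against 3.88, 2.95 and 3.54 CPM labelled DMSO. Both lines were lower under the prexasertib label without overlap. IER5L fell in knockout (-1.23, SE 0.16, edgeR adjusted p = 3.96e-06) and in parent cells (-1.07, SE 0.16, adjusted p = 5.35e-06), with a difference of -0.17 (SE 0.23, adjusted p = 0.693). These calls rest on reads shared with other genes: 5.87% of IER5L reads lay outside RP11-247A12.2 and RP11-247A12.8, and on those alone the values were -1.12 (adjusted p = 0.277) in knockout and -0.13 (adjusted p = 0.889) in parent cells. On log2(TPM + 1) with limma the values were -0.61 in knockout (adjusted p = 0.00154) and -0.45 in parent cells (adjusted p = 0.0019).

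Among the PP2A subunits and heat shock factors that relate to IER5, 1 of 13 tested genes was called higher and 4 lower in knockout cells. In parent cells 2 were called higher and 4 lower. Of all tested genes, 6.11% were called higher and 6.83% lower in knockout cells, and 18.2% each way in parent cells. The medians of the list were -0.02 in knockout and -0.07 in parent cells. All genes of this list named by the smallest p were regulatory B56 subunits. PPP2R5B averaged 4.73 and 6.11 CPM under the prexasertib and DMSO labels in knockout cells (-0.37, SE 0.10, edgeR adjusted p = 0.0171) and 4.67 and 9.13 CPM in parent cells (-0.97, SE 0.10, adjusted p = 2.63e-08), and fell by more in parent cells (difference 0.60, adjusted p = 0.0047). PPP2R5D fell in knockout (-0.42, adjusted p = 5.54e-07) and in parent cells (-0.35, adjusted p = 1.73e-06), and PPP2R5C in knockout (-0.30, adjusted p = 0.000173) and in parent cells (-0.14, adjusted p = 0.0363).

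MAFF and MAFK, both small MAF genes, went in opposite directions in parent cells. MAFF, at chr22:38597889-38612518, had 1.10, 1.22 and 2.19 CPM in knockout libraries labelled prexasertib, against 1.76, 1.42 and 1.60 CPM in those labelled DMSO. It had 1.11, 1.07 and 1.06 CPM in parent libraries labelled prexasertib, against 3.91, 3.83 and 3.95 CPM in those labelled DMSO. The knockout groups overlapped, with replicate 3 labelled prexasertib the highest of the 6 knockout libraries, while the parent groups lay far apart. MAFF fell in parent cells (-1.85, SE 0.20, edgeR adjusted p = 3.41e-08), and its knockout value was -0.09 (SE 0.20, adjusted p = 0.853). The difference between the lines was 1.76 (SE 0.28, adjusted p = 6.43e-05), and 1.41 without knockout replicate 3 labelled prexasertib. On log2(TPM + 1) with limma it was 0.77 (adjusted p = 0.00598), and the parent value -0.81 (adjusted p = 0.000149). These levels rest on 50 to 276 exonic reads per library, of which 93.4% lay outside PLA2G6.

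MAFK, at chr7:1570350-1582679, rose in both lines. MAFK had 31.7, 34.8 and 30.0 CPM in knockout libraries labelled prexasertib, against 23.5, 24.5 and 26.4 CPM in those labelled DMSO. In parent libraries MAFK had 29.6, 31.6 and 37.0 CPM labelled prexasertib, against 22.6, 28.2 and 25.8 CPM labelled DMSO. All libraries labelled prexasertib were above those labelled DMSO of their line. The rise was 0.38 in knockout (SE 0.09, edgeR adjusted p = 0.00486) and 0.35 in parent cells (SE 0.09, adjusted p = 0.00254), with a difference of 0.02 (SE 0.12, adjusted p = 0.928). Without parent replicate 1 labelled DMSO the parent value was 0.23 (adjusted p = 0.0357). Of MAFK reads, 29.5% lay outside AC093734.1 and TMEM184A, and these gave 0.39 (adjusted p = 0.0131) in knockout and 0.36 (adjusted p = 0.00799) in parent cells.

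The third small MAF gene, MAFG, also rose in both lines, by 0.35 in knockout (SE 0.07, edgeR adjusted p = 0.000982) and 0.50 in parent cells (SE 0.07, adjusted p = 2.3e-06). BACH1, a repressor that pairs with small MAF proteins, rose in knockout cells (0.26, adjusted p = 0.0023), beside 0.07 in parent cells (adjusted p = 0.39). In all, 2 of 10 tested MAF paralogs and CNC partners were called higher and 1 lower in knockout cells, and 2 higher and 4 lower in parent cells, with medians of -0.13 and -0.14. Of 10 tested NRF2 target genes, 2 were called higher and 0 lower in knockout cells, and 5 higher and 1 lower in parent cells. Their medians were 0.07 and 0.17. Beside both lists, 6.11% of all tested genes were called higher and 6.83% lower in knockout cells, and 18.2% each way in parent cells. GCLC and GCLM, the subunits of the enzyme that starts glutathione synthesis, rose in both lines, by 0.26 and 0.28 in knockout and by 0.36 and 0.41 in parent cells (largest adjusted p = 0.0182). SLC7A11, the cystine transporter, was the 1 NRF2 target gene called lower in parent cells. It averaged 14.7 and 16.7 CPM under the prexasertib and DMSO labels in knockout cells (-0.19, adjusted p = 0.123). In parent cells it fell to 25.9 CPM labelled prexasertib, against 48.6 CPM labelled DMSO (-0.91, SE 0.08, adjusted p = 4.35e-10).

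RHOB, at chr2:20646835-20649200, had on counts the log2 fold change of largest size among the 10 genes in each line. RHOB had 2.48, 2.66 and 2.16 CPM in knockout libraries labelled prexasertib, against 6.75, 5.81 and 5.72 CPM in those labelled DMSO. Parent libraries had 0.308, 0.260 and 0.339 CPM of RHOB labelled prexasertib, against 2.46, 3.36 and 3.22 CPM labelled DMSO. Parent libraries labelled prexasertib were the lowest of all 12, at 16 to 18 reads each, and knockout libraries labelled DMSO the highest. RHOB fell in knockout (-1.32, SE 0.14, edgeR adjusted p = 1.83e-07) and in parent cells (-3.32, SE 0.20, adjusted p = 4.59e-13). The difference between the lines was 1.99 (SE 0.25, adjusted p = 2.39e-06). It depends on how low levels are treated: on log2(TPM + 1) with limma it was 0.14 (adjusted p = 0.438), and with a pseudocount of 0.1, chosen after seeing the data, 1.28 (adjusted p = 0.00152). The fall itself was -0.88 in knockout and -1.02 in parent cells on log2(TPM + 1), smaller in parent cells than that of IER3 (-1.87) and IER2 (-1.26), and -1.25 and -2.52 with the pseudocount of 0.1. RHOB overlaps no other gene and has no intron in the files.

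Of 16 tested small GTPases related to RHOB and their effectors, 2 were called higher and 3 lower in knockout cells, beside 6.11% and 6.83% of all tested genes. In parent cells 8 were called higher and 2 lower, beside 18.2% of all tested genes each way. The medians were -0.04 in knockout and 0.18 in parent cells. RAC2, a blood-cell RAC GTPase, fell in knockout (-0.37, edgeR adjusted p = 1.58e-05) and in parent cells (-0.14, adjusted p = 0.0406). RHOH, a blood-cell relative of RHOB without GTPase activity, rose in knockout (0.31, adjusted p = 2.28e-05) and in parent cells (0.24, adjusted p = 0.000177). RAC1 rose in parent cells (0.36, adjusted p = 2.19e-06), beside 0.11 in knockout cells (adjusted p = 0.163).

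PIM1, at chr6:37137979-37143202, differed little by treatment label. PIM1 had 6.54, 6.54 and 6.27 CPM in knockout libraries labelled prexasertib, against 7.29, 7.47 and 8.34 CPM in those labelled DMSO. In parent cells it had 4.52, 4.97 and 6.06 CPM labelled prexasertib, against 6.50, 6.52 and 5.87 CPM labelled DMSO. The knockout groups did not overlap and the parent groups did. The log2 fold change was -0.25 in knockout (SE 0.11, edgeR adjusted p = 0.133) and -0.29 in parent cells (SE 0.11, adjusted p = 0.0428). The parent call was lost with only the parent libraries in the fit (adjusted p = 0.0774) and without replicate 1 or 2 of either label, at adjusted p of 0.0661 and 0.0636 without those labelled DMSO and of 0.125 and 0.121 without those labelled prexasertib. It was also lost on deposited TPM with limma, at -0.10 on log2(TPM + 1) (adjusted p = 0.316) and -0.14 on log2(TPM + 0.1) (adjusted p = 0.3). The knockout value passed with only the knockout libraries in the fit (adjusted p = 0.0473). The lines differed by 0.03 (SE 0.15, adjusted p = 0.916).

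Its paralogs fell in both lines. PIM2 averaged 6.78 and 10.1 CPM under the prexasertib and DMSO labels in knockout cells (-0.58, SE 0.10, edgeR adjusted p = 0.000297), and 6.52 and 12.8 CPM in parent cells (-0.97, SE 0.10, adjusted p = 3.04e-08). PIM3 averaged 37.5 and 46.5 CPM in knockout (-0.31, SE 0.07, adjusted p = 0.0023) and 43.8 and 79.0 CPM in parent cells (-0.85, SE 0.07, adjusted p = 1.25e-10), and its difference between the lines was called (0.54, adjusted p = 0.00017), while that of PIM2 was not (0.39, adjusted p = 0.0703). STAT5B, which acts upstream of PIM1, rose in knockout (0.25, adjusted p = 0.000389) and in parent cells (0.28, adjusted p = 2.91e-05). Of 14 tested PIM paralogs and JAK-STAT genes, 1 was called higher and 4 lower in knockout cells. In parent cells 3 were called higher and 4 lower. Of all tested genes, 6.11% were called higher and 6.83% lower in knockout cells, and 18.2% each way in parent cells. The medians of the list were 0.00 in knockout and 0.01 in parent cells.

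TIPARP, at chr3:156391024-156424559, was high in parent cells labelled DMSO alone among the 4 groups. TIPARP had 10.99, 11.1 and 10.1 CPM in knockout libraries labelled prexasertib, against 10.6, 11.1 and 11.5 CPM in those labelled DMSO. It had 9.95, 10.18 and 11.7 CPM in parent libraries labelled prexasertib, against 23.2, 23.1 and 23.1 CPM in those labelled DMSO. The first 3 groups overlapped, and the last lay above all 9 other libraries. TIPARP fell in parent cells (-1.13, SE 0.08, edgeR adjusted p = 6.3e-12), beside -0.05 in knockout cells (SE 0.08, adjusted p = 0.781), and the lines differed by 1.08 (SE 0.11, adjusted p = 6.41e-08). No other gene overlaps it.

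CYP1A1, the classic target gene of AHR, had mean levels of 0.123 CPM labelled prexasertib and 0.203 CPM labelled DMSO in knockout cells (-0.67, SE 0.46, edgeR adjusted p = 0.405), and 0.233 CPM labelled prexasertib and 1.62 CPM labelled DMSO in parent cells (-2.77, SE 0.35, adjusted p = 5.33e-07). Its difference between the lines was 2.10 (adjusted p = 0.0158). That value rests on group means of at most 0.233 CPM outside parent cells labelled DMSO, and it was not run on the TPM scales. HSP90AA1, the chaperone that holds AHR in the cytoplasm, averaged 2119 and 2308 CPM under the prexasertib and DMSO labels in knockout cells (-0.12, adjusted p = 0.152) and rose in parent cells to 2150.3 CPM labelled prexasertib, against 1466 CPM labelled DMSO (0.55, adjusted p = 7.72e-09). NQO1, an antioxidant target gene of AHR and NRF2, had 0.19 in knockout (adjusted p = 0.238) and 0.17 in parent cells (adjusted p = 0.188). AHR itself had 0 to 2 reads per library and was not tested. In all, 0 of 8 tested genes of the AHR pathway were called higher and 0 lower in knockout cells. In parent cells 3 were called higher and 1 lower. Of all tested genes, 6.11% were called higher and 6.83% lower in knockout cells, and 18.2% each way in parent cells. The medians of the list were -0.03 in knockout and 0.17 in parent cells.

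**Figure D3:**
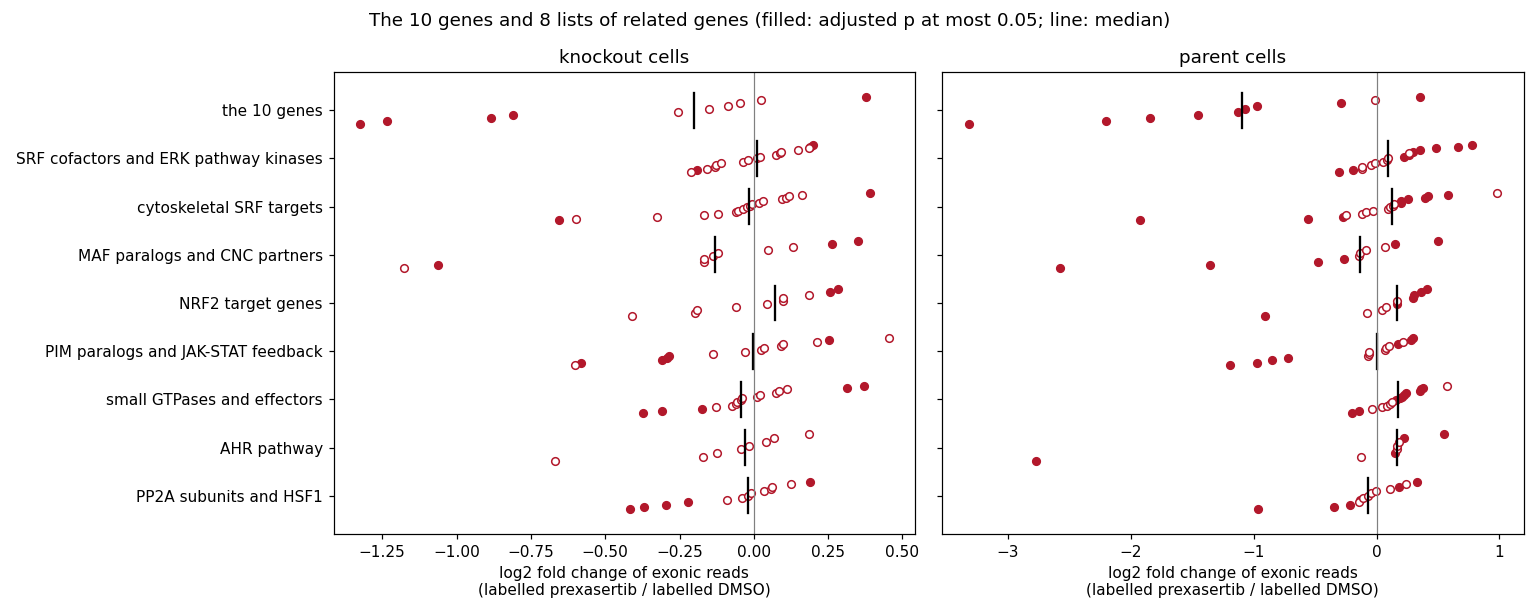
Log2 fold change of exonic reads, prexasertib label over DMSO label, for the 10 genes and 8 lists of related genes, in knockout cells on the left and parent cells on the right, on separate axes. Each point is a gene, filled points have an adjusted p of at most 0.05 and lines are medians. The median of the 10 genes is -0.20 in knockout and -1.10 in parent cells, while those of the lists lie between -0.14 and 0.18.

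Between the lines, knockout over parent, the calls depended on the treatment label. Among libraries labelled prexasertib 2 of 10 genes were called higher in knockout cells and 0 lower (1 lower at an unadjusted p under 0.05, and 0 with DESeq2), where 14.5% of all tested genes were called higher and 13.5% lower. Among libraries labelled DMSO 2 were called higher and 5 lower, where 19.6% of all tested genes were called higher and 20.4% lower. Groups did not overlap for 3 and 6 of 10 genes, beside 38.1% and 53.6% of all tested genes. RHOB was higher in knockout cells under both labels, by 3.01 (SE 0.20, edgeR adjusted p = 1.05e-11) labelled prexasertib and 1.02 (SE 0.14, adjusted p = 1.32e-06) labelled DMSO. Lower in knockout cells labelled DMSO were IER2 at -1.22 (SE 0.06, adjusted p = 3.24e-15), IER3 at -1.38 (SE 0.08, adjusted p = 2.33e-13), MAFF at -1.29 (SE 0.19, adjusted p = 3.44e-06) and TIPARP at -1.06 (SE 0.08, adjusted p = 1.46e-11). Labelled prexasertib the same 4 genes had 0.08, -0.06, 0.47 and 0.01, with adjusted p of at least 0.103. The MAFF value passed without knockout replicate 1 labelled prexasertib (0.65, adjusted p = 0.032) and with exonic and intronic reads together (0.46, adjusted p = 0.0358). It was 0.097 without knockout replicate 3 labelled prexasertib (adjusted p = 0.781). The IER2 value passed on exonic reads outside other genes (0.15, adjusted p = 0.0401) and on deposited TPM with limma (log2(TPM + 1), 0.22, adjusted p = 0.0139). On the same scale RHOB was at 1.01 labelled prexasertib, and MAFF at -0.54 and TIPARP at -0.61 labelled DMSO, all still called (largest adjusted p = 0.0014).

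PIM1 was higher in knockout cells by 0.32 (SE 0.11, edgeR adjusted p = 0.0318) labelled prexasertib and 0.29 (SE 0.11, adjusted p = 0.0349) labelled DMSO. Both calls were lost when libraries were left out: labelled DMSO without any of the 6 (adjusted p 0.0545 to 0.159), and labelled prexasertib without any but parent replicate 3 (0.0525 to 0.131). On log2(TPM + 0.1) PIM1 labelled DMSO was at 0.55 (limma adjusted p = 0.000822). SRF was lower in knockout cells labelled DMSO, at -0.18 (SE 0.06, adjusted p = 0.0265), but the call was lost without parent replicate 2 or 3 or knockout replicate 1 or 3 (adjusted p 0.0856, 0.15, 0.0518 and 0.0929), the value was -0.28 without parent replicate 1, and it turned to 0.10 on log2(TPM + 1) (adjusted p = 0.212). IER5, IER5L and MAFK did not pass under either label on exonic counts. Against CPM, deposited TPM shifted the comparison labelled DMSO by 0.28, as a mean over IER2, IER5, SRF and MAFK themselves. On log2(TPM + 1), IER5 (0.21, limma adjusted p = 0.00413) and MAFK (0.21, adjusted p = 0.032) were called higher in knockout cells labelled DMSO. IER5 was called higher there labelled prexasertib too (0.23, adjusted p = 0.00376).

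Intronic reads, which come mostly from transcripts not yet spliced, could be tested for the 6 genes with introns and enough reads, among 19852 genes. IER3, IER5, IER5L and RHOB have no intron in the files. In knockout cells 1 of 6 was called higher and 0 lower (1 lower at an unadjusted p under 0.05, and 0 with DESeq2), where 5.83% of all tested genes were called higher and 6.15% lower. In parent cells 5 of 6 were called, 1 higher and 4 lower, where 30.8% of all tested genes were called in either direction. Intronic MAFF was read at 2.52, 2.82 and 2.02 CPM in knockout libraries labelled prexasertib, against 2.69, 2.68 and 3.46 CPM labelled DMSO. It was read at 1.52, 1.88 and 2.60 CPM in parent libraries labelled prexasertib, against 5.71, 5.25 and 6.26 CPM labelled DMSO. The knockout groups overlapped and the parent groups did not, at 38 to 139 intronic reads per library. The log2 fold changes were -0.25 (SE 0.23, edgeR adjusted p = 0.552) and -1.54 (SE 0.22, adjusted p = 1.88e-05). MAFF was the 1 gene of 6 whose intronic difference between the lines was called (1.29, SE 0.32, adjusted p = 0.0131), where 5.82% of all tested genes were called positive and 4.02% negative, and 0 of 6 were called negative (0 also at an unadjusted p under 0.05, and with DESeq2).

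TIPARP introns fell by 0.46 in parent cells (SE 0.11, edgeR adjusted p = 0.00265), beside -0.14 in knockout cells (SE 0.11, adjusted p = 0.467). Introns made up 28.6, 30.0 and 33.7% of TIPARP reads in knockout libraries labelled prexasertib, against 31.7, 34.0 and 31.2% in those labelled DMSO. The shares were 35.7, 32.7 and 28.4% in parent libraries labelled prexasertib, against 21.2, 20.9 and 19.5% in those labelled DMSO. Parent libraries labelled DMSO, where exonic TIPARP was highest, had the lowest intronic shares, without overlap with the other libraries. IER2 introns fell in parent cells (-0.72, SE 0.21, adjusted p = 0.0112), a call lost without replicate 3 labelled DMSO (-0.59, adjusted p = 0.0716), beside -0.04 in knockout cells (adjusted p = 0.945). MAFK introns rose in knockout (0.41, SE 0.12, adjusted p = 0.0248) and in parent cells (0.58, SE 0.12, adjusted p = 0.000715). The knockout call was lost without replicate 1 or 3 labelled DMSO (adjusted p 0.116 and 0.11) and without replicate 1 or 2 labelled prexasertib (0.0793 and 0.127).

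SRF introns fell in parent cells (-0.37, SE 0.14, edgeR adjusted p = 0.0419), where the exonic value was -0.01. That call was lost without replicate 1 or 3 labelled DMSO (-0.35 and -0.21, adjusted p = 0.105 and 0.291) and without replicate 1 or 3 labelled prexasertib (-0.31 and -0.33, adjusted p = 0.0813 and 0.105). PIM1 introns had 15 to 74 reads per library, with -0.84 (SE 0.31, adjusted p = 0.0874) in knockout and -0.26 (SE 0.35, adjusted p = 0.627) in parent cells.

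**Figure D4:**
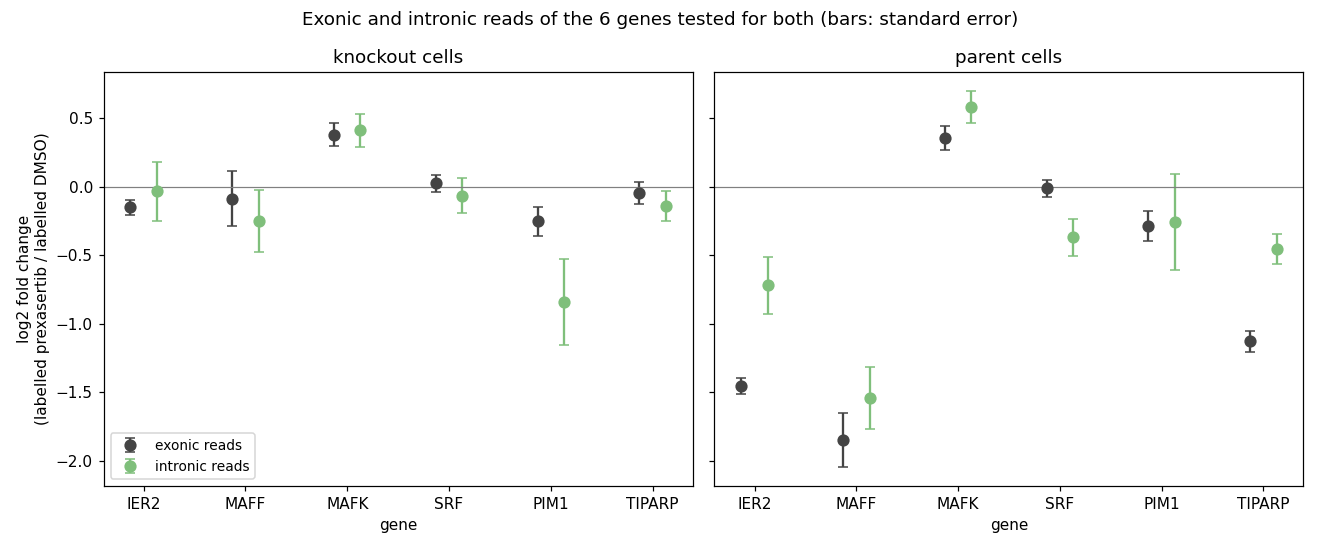
Log2 fold change of exonic and intronic reads by treatment label for the 6 genes tested for both, knockout cells on the left and parent cells on the right, with standard errors. In parent cells every gene but MAFK lies below 0 for both kinds of reads, with exonic SRF at -0.01. MAFK lies above 0 for both in both lines.

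Per length, as deposited TPM, IER2 led in 3 groups, at 19.1 ± 1.3 TPM in knockout cells labelled prexasertib, 16.2 ± 1.0 in parent cells labelled prexasertib and 40.2 ± 1.6 in parent cells labelled DMSO (SD, n = 3 each). In knockout cells labelled DMSO IER5 led at 24.5 ± 0.8 TPM, above IER2 at 20.9 ± 0.7. In knockout cells labelled prexasertib the order of levels was IER2, IER5, SRF, MAFK, IER3, PIM1, TIPARP, RHOB, MAFF and IER5L, and IER5 and SRF, PIM1 and TIPARP, and MAFF and IER5L overlapped as neighbours. In knockout cells labelled DMSO it was IER5, IER2, SRF, IER3, MAFK, PIM1, RHOB, TIPARP, IER5L and MAFF, where PIM1 and RHOB overlapped. In parent cells labelled prexasertib it was IER2, SRF, IER5, MAFK, IER3, TIPARP, PIM1, IER5L, MAFF and RHOB with no overlap between neighbours, from 16.2 TPM down to 0.147 ± 0.018 TPM. In parent cells labelled DMSO it was IER2, IER3, IER5, SRF, MAFK, TIPARP, PIM1, MAFF, IER5L and RHOB, where IER3 overlapped IER5 and the last 3 overlapped in turn.

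Across the 12 libraries, the log2 levels that correlated most were those of IER2 and TIPARP (Pearson r = 0.98) and of IER2 and IER3 (0.96). IER5 and IER5L came next (0.94), and the most opposed pair was IER5 and MAFK (-0.84). These values describe 12 libraries that share 2 lines and 2 labels, and carry no test. Among 14042 genes searched, those closest to IER2 were CTC-250I14.6, which overlaps it, and RASSF1 at 0.99, which averaged 31.9 and 35.2 CPM in knockout cells labelled prexasertib and DMSO and 31.4 and 104 CPM in parent cells. For TIPARP they were the histone genes HIST1H2AM and HIST1H2BC, whose near-identical copies make their counts uncertain. For IER3 they were ZKSCAN5 and the overlapping XXbac-BPG252P9.10, for MAFF SAMD8 and SCYL2 (0.98 each), for IER5 the mitotic genes KIF20A and PTTG1 (0.99 each), and for IER5L ATP8B3 and PPP2R5D (0.97 and 0.96). KIF20A averaged 142 and 368 CPM in knockout cells labelled prexasertib and DMSO, and 127 and 441 CPM in parent cells. For RHOB they were KCTD19 and CCSAP (0.98 each), for MAFK the overlapping AC093734.1 and NUP85 (0.95), for PIM1 PTMS and CPNE1 (0.96 and 0.94), and for SRF C19orf68 and GRWD1 (0.92 and 0.91).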

How the data were processed

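The 12 records of RNA-seq gave 1 gene file each. Samples of total RNA were pooled and read in paired ends on a HiSeq4000, per the labels' protocols. Per the submitters' processing notes, reads went through STAR 2.5.4a, Picard 2.9.2, Trimmomatic 0.39 and Trim Galore 0.6.2 (named without roles) with the build hg19. How reads were counted, on which annotation, with which strand setting and with what treatment of duplicates is not given in the sources used here. The deposited files give read counts (all, exonic, intronic, and outside other genes) and TPM per gene, per the file headers. Genes absent from a file were taken as 0, and 36 Y pseudoautosomal copies were left out of 44183 features. Starts and ends had 1 added, since the files count from 0.

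Exonic and intronic counts were tested with edgeR 4.0.16 in R 4.3.3: filterByExpr (minimum count 10), TMM, 4 group means over 12 libraries, robust quasi-likelihood F test, Benjamini-Hochberg adjustment over 23045 and 19852 genes, called at 0.05. Alternatives used DESeq2 1.42.0, limma 3.58.1 and other reads or libraries. The fit was tested on simulated data. The members and lists were chosen with earlier results of these data known. Named genes are the 10, SLFN11, for each list the 2 of smallest p in each line, and for each gene the 2 of highest correlation of log2(CPM + 1) over 12 libraries among genes whose mean log2 CPM was 1 or more. Values of a few genes this rule named are not reported here. Promoters came from RefSeq. No libraries agreed within sampling noise, with chi-square per degree of freedom of 4.29 to 33.5 within groups.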

Additional observations from a re-analysis of the deposited data

Results flagged for a closer look

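The response to the treatment label differed between the lines for 5 of the 10 genes, by the test of the difference itself (knockout response minus parent response, log2, exonic reads, edgeR). The difference was 1.30 for IER2 (adjusted p = 7.05e-12), 1.32 for IER3 (adjusted p = 8.38e-09), 1.76 for MAFF (adjusted p = 6.43e-05), 1.99 for RHOB (adjusted p = 2.39e-06) and 1.08 for TIPARP (adjusted p = 6.41e-08). For intronic reads it was called for MAFF, at 1.29 (adjusted p = 0.0131). All 6 values change sign if the library names, and not the records, give the treatment.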

How the results depend on the processing

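The 5 differences between the lines in the response (IER2, IER3, MAFF, RHOB, TIPARP) kept their sign in every alternative run, and 4 of 5 calls held on log2(TPM + 1), where RHOB missed and MAFF was 0.77 (1.76 on counts). On deposited TPM (log2(TPM + 1) or log2(TPM + 0.1), the second added after seeing the data), 4 genes were called higher in knockout cells under either label. Among libraries labelled prexasertib that count was 1 with only the 2 groups in the fit. With 1 library left out, the counts called higher in knockout cells were 1 labelled DMSO and 1 to 2 labelled prexasertib, intronic genes lower in parent cells 2 to 4, and intronic genes higher in knockout cells 0 to 1.

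Signs turned for values near 0 and for SRF between the lines labelled DMSO (-0.18 on counts, edgeR adjusted p = 0.0265). Against CPM, deposited TPM shifted log2 fold changes by 0.14 in parent cells and by -0.13 for the difference between the responses. Between the lines it shifted them by 0.15 labelled prexasertib and 0.28 labelled DMSO. These shifts are means over IER2, IER5, SRF and MAFK, and the cause of the turns was not tested. On log2(TPM + 1) and log2(TPM + 0.1), SRF in parent cells was 0.12 and 0.13. The difference between the responses was -0.088 and -0.10 for MAFK, -0.087 and -0.093 for SRF and -0.079 and -0.089 for PIM1. Knockout over parent labelled prexasertib was 0.076 and 0.089 for IER3, 0.12 and 0.13 for MAFK and 0.010 and 0.011 for SRF. Labelled DMSO it was 0.21 and 0.22 for IER5, 0.13 and 0.21 for IER5L, 0.21 and 0.24 for MAFK and 0.098 and 0.10 for SRF, which was called lower on counts. Reads outside other genes gave 0.15 for IER5L labelled DMSO and -0.0036 for TIPARP labelled prexasertib, and exonic plus intronic reads 0.018 for MAFK labelled prexasertib.

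With 1 library left out, log2 fold changes ranged from -0.13 to 0.022 for SRF in parent cells, -0.45 to 0.094 for MAFF, -0.0091 to 0.070 for SRF and -0.36 to 0.12 for IER2 introns in knockout cells. The difference of responses ranged from -0.0138 to 0.14 for MAFK and -0.022 to 0.16 for PIM1. Knockout over parent ranged from -0.18 to 0.023 for IER5L and -0.14 to 0.014 for MAFK labelled DMSO, and from -0.083 to 0.078 for MAFK and -0.024 to 0.094 for TIPARP labelled prexasertib.

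Replicate numbers gave no sign of pairing: deviations of same-numbered libraries correlated at -0.30 to 0.20, over 0.1 in 6 of 18 pairs. Libraries of different numbers correlated at -0.33 to 0.27, over 0.1 in 11 of 36 pairs. A replicate block added IER2 (-0.15, adjusted p = 0.0498) to the genes called lower in knockout cells, 5 in all, and changed no other count of calls, exonic or intronic. Low read numbers limit RHOB in parent cells labelled prexasertib (16 to 18 reads a library), MAFF and PIM1 introns. Low levels also limit CYP1A1, with group means of 0.123 to 1.62 CPM.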
